A study of Arabidopsis thaliana with 9 samples.

Results

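The small subunit of the cytosolic ribosome was examined through 59 Arabidopsis thaliana genes, a list of locus identifiers that covers the copies of 23 proteins from RPSa to RPS24. All 59 loci were found in a table of 33278 loci. The list does not hold RPS15a, RPS21 or the proteins numbered above RPS24, which are described separately below. The series has 9 samples. Of these, 4 are RNA-seq libraries of 6-day seedlings, and the 5 leaf samples are not analysed here. Of the RNA libraries, 2 are labelled as an hd2b hd2c double mutant and 2 as wild type (Columbia-0), and plants grew on soil under continuous light. The labels give neither the alleles, nor the number of plants in a library, nor whether libraries of one genotype came from separate plants. The p-values therefore reflect the spread among these libraries alone, and that spread may be technical.

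HD2B and HD2C are plant-specific histone deacetylases found largely in the nucleolus, where ribosomal RNA is made. As a check of the labels, HD2B (AT5G22650) had 24.2 and 24.3 FPKM (fragments per kilobase of transcript, scaled to the mapped fragments of a library) in the labelled hd2b hd2c libraries, against 138 and 191 FPKM in wild type. HD2C (AT5G03740) had 74.7 and 55.8 FPKM in the labelled hd2b hd2c libraries, against 56.1 and 63.9 FPKM in wild type. The label was therefore borne out for HD2B and not for HD2C at the level of whole-locus FPKM, and the libraries are called labelled mutants throughout. FPKM over all loci summed to 956002 and 1105981 in the labelled mutants and to 988524 and 992451 in wild type. The file holds no fragment counts, so the depth is unknown.

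A 40S subunit is built from 18S ribosomal RNA and a set of proteins, each present once per subunit, and it reads the messenger RNA while the large subunit joins the amino acids. Arabidopsis encodes each of these proteins with a small family of genes, so the transcript supply of a protein is the sum over its copies. Plant ribosomal protein genes are known to be most active in dividing and growing tissue. In the list, 12 proteins had 2 copies, 9 proteins had 3 copies, and 2 proteins, RPS2 among them, had 4 copies.

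Transcripts of the small subunit made up a larger part of the seedling transcriptome in the labelled mutants. The 59 genes together held 22726 and 27629 FPKM in the labelled mutants, against 16913 and 17956 FPKM in wild type. As a percentage of all FPKM in the same library this was 2.38% and 2.50% in the labelled mutants, against 1.71% and 1.81% in wild type, means of 2.44% ± 0.0855 and 1.76% ± 0.0695 (SD, n = 2 each). The groups did not overlap on either scale, and the percentage was 1.38-fold higher. In bulk tissue, more cells rich in these transcripts and more transcript per cell cannot be told apart.

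The difference was spread over nearly the whole list and was small for most genes, with a median fold of 1.44 and a largest of 3.46. Of the 59 genes, 58 passed the filter on low values (at least 1 FPKM in at least 2 libraries), and each of these 58 had 1 FPKM or more in all 4 libraries. All 58 had a log2 change (labelled mutant minus wild type, on log2(FPKM + 1)) above 0, where 50.7% of the 19917 tested loci did. The median log2 change was 0.51 with quartiles of 0.48 and 0.58, against a median of 0.00 with quartiles of −0.15 and 0.17 over all tested loci. Both labelled mutant libraries stood above both wild-type libraries for 57 of the 58 genes, where 24.2% of all tested loci did so. None stood below wild type in both, where 25.1% of all tested loci did so. The 1 exception was RPS3aB (AT4G34670), with 397 and 589 FPKM in the labelled mutants and 320.1 and 412 FPKM in wild type.

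Few single genes passed the test. By limma with Benjamini-Hochberg adjustment over all tested loci, 3 of the 58 genes rose at an adjusted p under 0.05 and none fell, and 0.608% of all tested loci were called higher and 0.552% lower. At an unadjusted p under 0.05 in the same fit, 52 of the 58 genes were higher and 0 were lower, where 9.22% of all tested loci were higher. The genes that rose were weakly expressed copies, and RPS23A and RPSaB among them are described with the minor copies below. The other 55 tested members did not pass.

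**Figure D1:**
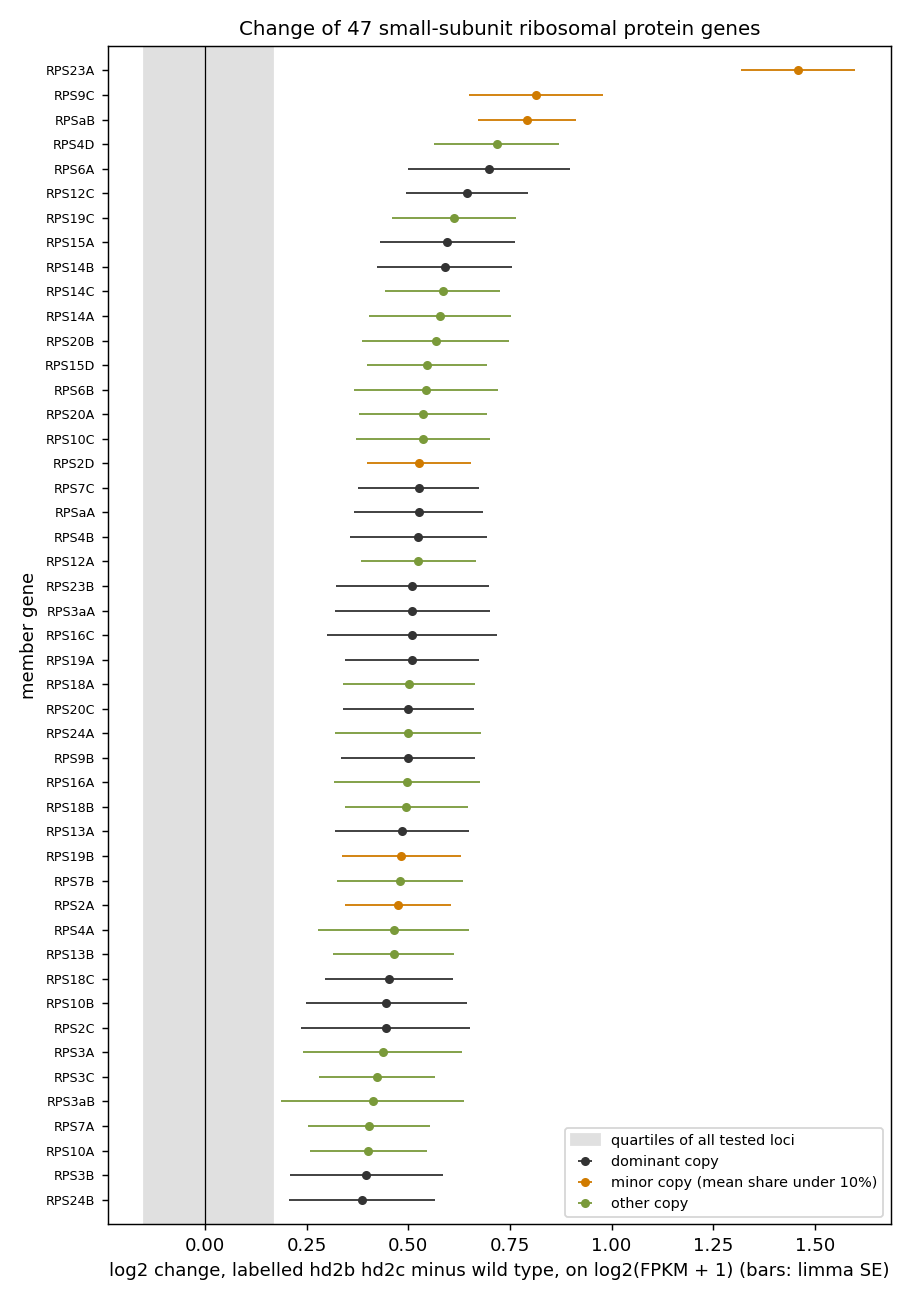
Log2 change (labelled hd2b hd2c minus wild type, on log2(FPKM + 1), x axis) of 47 of the tested small-subunit genes, sorted from top to bottom, with limma standard errors as bars; colours mark dominant, minor and other copies and the grey band spans the quartiles of all tested loci. All points lie to the right of the band, between 0.39 and 1.46, and the 3 at the top are minor copies.

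Summed over copies, all 23 proteins stood higher in both labelled mutant libraries than in both wild-type libraries, and the folds lay in a narrow range of 1.35 to 1.56. When the member rows of the table were replaced by protein sums and the limma fit was repeated, 0 of the 23 sums passed (adjusted p 0.135 to 0.312), where 0.594% of all tested rows were called higher. At an unadjusted p under 0.05, 20 of the 23 sums were higher. In the fit of single loci, 9.22% of all tested loci were higher at that threshold. The same share was not taken for the fit with sums. The levels of the proteins were also close together, the highest mean sum being 2.20 times the lowest.

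**Figure D2:**
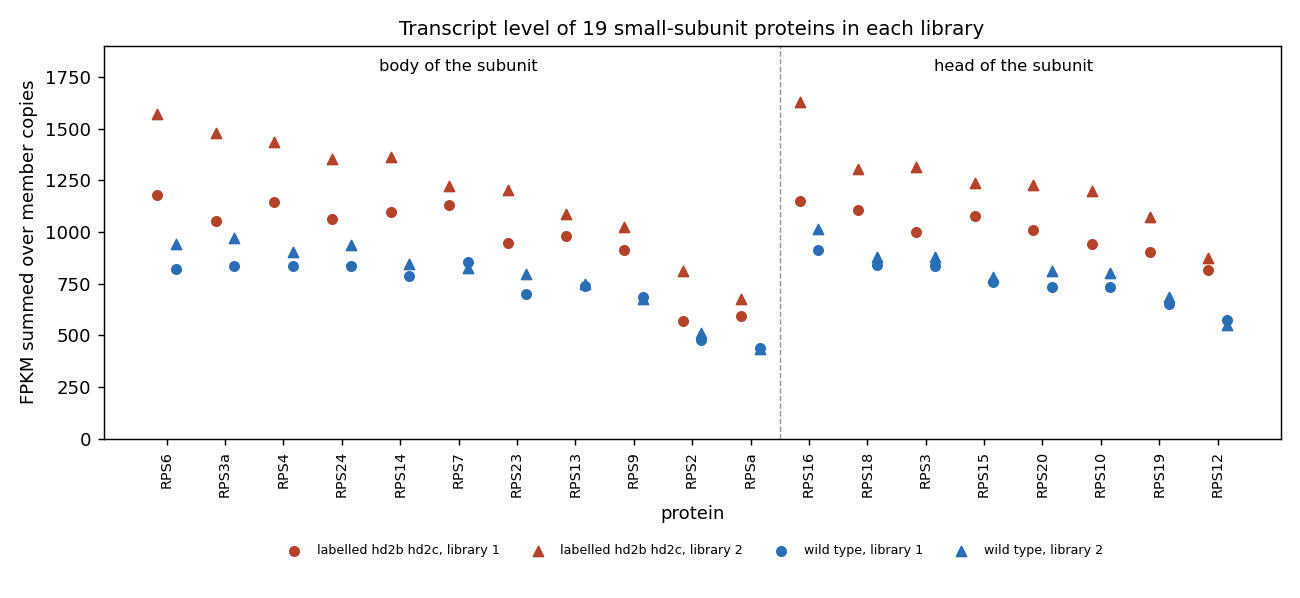
FPKM summed over the member copies of each of 19 proteins (y axis) in the 2 labelled hd2b hd2c libraries (red, left) and the 2 wild-type libraries (blue, right), with circles for library 1 and triangles for library 2. For every protein drawn, both red points lie above both blue points, and the red triangle lies above the red circle.

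Among proteins of the body of the subunit, RPS6 had the largest summed fold. RPS6 is the protein that S6 kinase phosphorylates downstream of the TOR kinase, and its 2 copies summed to 1180.5 and 1569 FPKM in the labelled mutants, against 818 and 939.9 FPKM in wild type, 1.56-fold higher (log2 change 0.63, SE 0.20, limma adjusted p = 0.181). The larger part of this came from RPS6A (AT4G31700), with 681 and 940.4 FPKM in the labelled mutants and 460.1 and 528 FPKM in wild type. RPS14 (uS11), a protein of the platform near the exit of the messenger RNA, summed to 1097 and 1360.5 FPKM in the labelled mutants, against 786 and 843 FPKM in wild type, 1.51-fold higher. Its 3 copies had nearly equal log2 changes of 0.58 to 0.59. RPS4, carried by 3 copies, was 1.48-fold higher in sum. Its copies were less alike, since RPS4D (AT5G58420) had a log2 change of 0.72 (SE 0.15, limma adjusted p = 0.0803) and RPS4A (AT2G17360) one of 0.46 (SE 0.19). RPS4D had 339 and 395 FPKM in the labelled mutants and 213 and 232 FPKM in wild type, with no overlap.

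The proteins that line the path of the messenger RNA had log2 changes below the median of the 23 sums, which was 0.53. RPS23 (uS12), which reaches into the decoding centre, summed to 948 and 1201 FPKM in the labelled mutants, against 697 and 797 FPKM in wild type, 1.44-fold higher (log2 change 0.52). RPS9 (uS4), at the entry of the channel, was 1.43-fold higher, with 914 and 1026 FPKM in the labelled mutants and 685 and 673 FPKM in wild type (log2 change 0.51). Nearly all of RPS9 came from RPS9B (AT5G15200), with 873 and 986 FPKM in the labelled mutants and 666 and 646 FPKM in wild type. RPS2 (uS5), its neighbour there, was 1.39-fold higher, with 567 and 812 FPKM in the labelled mutants and 479 and 511 FPKM in wild type (log2 change 0.45). For RPS2 the gap between the labelled mutant libraries was larger than the gap from the lower of them to wild type. RPS3 (uS3), on the head side of the same entry, had the smallest fold of all, 1.35, with 999 and 1312 FPKM in the labelled mutants and 833 and 879 FPKM in wild type (log2 change 0.42, SE 0.19, limma adjusted p = 0.312). Its leading copy RPS3B (AT3G53870) had 403 and 559 FPKM in the labelled mutants and 353 and 368 FPKM in wild type, and its log2 change of 0.40 was among the 5 smallest of the list.

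Of the other body proteins, RPSa (uS2), a relative of the animal laminin receptor precursor, was 1.45-fold higher, with 591 and 674 FPKM in the labelled mutants and 439 and 432 FPKM in wild type. Its leading copy RPSaA (AT1G72370) had 569 and 655 FPKM in the labelled mutants and 428 and 420.0 FPKM in wild type. In sum, RPS13 was 1.39-fold and RPS24 was 1.36-fold higher, and RPS7 and RPS3a had log2 changes of 0.48 and 0.47. RPS3aA (AT3G04840), the stronger RPS3a copy, had 658 and 889 FPKM in the labelled mutants and 515 and 560.4 FPKM in wild type. RPS7A (AT1G48830), the weakest RPS7 copy, had 263 and 304 FPKM in the labelled mutants and 224 and 204 FPKM in wild type. Neither of these copies overlapped between the groups, and neither passed the test. RPS24B (AT5G28060) had the smallest log2 change of any tested member, 0.39 (SE 0.18), with 577 and 736 FPKM in the labelled mutants and 473 and 525 FPKM in wild type.

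In the head of the subunit, RPS12, RPS15 and RPS19 were among the proteins with the larger summed folds. RPS12 was 1.51-fold higher, with 817 and 873 FPKM in the labelled mutants and 574 and 548 FPKM in wild type; its adjusted p of 0.135 in the limma fit was the smallest of the sums. RPS15 (uS19), which contacts the large subunit, was 1.503-fold higher, led by RPS15A (AT1G04270) with 795 and 932 FPKM in the labelled mutants and 569 and 569 FPKM in wild type. RPS19 was 1.48-fold higher.

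RPS16 (uS9), whose tail reaches the transfer RNA in the P site, had the highest mean sum of any protein, with 1150 and 1629 FPKM in the labelled mutants and 911 and 1016 FPKM in wild type, 1.44-fold higher. Most of it came from RPS16C (AT5G18380), with 967 and 1378 FPKM in the labelled mutants and 768 and 856 FPKM in wild type. RPS18A (AT1G22780) and RPS13A (AT4G00100) are known from the pointed first leaf mutants of Arabidopsis. RPS18A had 330.4 and 399 FPKM in the labelled mutants and 241 and 272 FPKM in wild type. RPS13A had 511 and 616 FPKM in the labelled mutants and 385 and 417 FPKM in wild type. Neither passed the test (limma adjusted p = 0.187 and 0.205), and the labelled mutant and wild-type values of each did not overlap. In sum, RPS20 was 1.45-fold and RPS10 was 1.39-fold higher, and RPS18 had a log2 change of 0.48. RPS10A (AT4G25740), the weakest RPS10 copy, had 233 and 265 FPKM in the labelled mutants and 191 and 185 FPKM in wild type (log2 change 0.40, among the 5 smallest).

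Medians by position in the subunit were close together. The median log2 change was 0.51 over the 27 copies of head proteins and 0.52 over the 31 tested copies of body proteins. It was 0.51 over the 32 tested copies of proteins shared with bacteria and archaea (names in uS) and 0.52 over the 26 copies of eukaryotic and archaeal proteins (names in eS). By chromosome, as read from the locus identifiers, the medians were 0.50, 0.51, 0.53, 0.45 and 0.53 for chromosomes 1 to 5. None of these differences was tested.

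Relative to each other, the 23 proteins kept nearly the same proportions. Each protein's share of the summed FPKM of the list in the labelled mutants was between 0.93 and 1.08 times its share in wild type. The ends of this range were RPS3, with 4.39% and 4.75% in the labelled mutants against 4.93% and 4.90% in wild type, and RPS6, with 5.19% and 5.68% in the labelled mutants against 4.84% and 5.23% in wild type. The RPS6 values overlapped between the groups and the RPS3 values did not.

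Within nearly every protein the same copy led in all libraries. The dominant copy, taken as the one with the highest mean FPKM over the 4 libraries, was the highest copy in each of the 4 libraries for 22 of the 23 proteins. The exception was RPS10, where RPS10C (AT5G52650, 354.8 FPKM) edged ahead of RPS10B (AT5G41520, 353.5 FPKM) in labelled mutant library 1, and RPS10B led in the other 3 libraries. The mean share of the dominant copy ran from 34.2% to 99.6%. In 4 proteins, RPS23, RPSa and RPS9 among them, the dominant copy held at least 95% of the summed FPKM. The others were shared more evenly, as in RPS14, where RPS14B and RPS14A (AT3G11510 and AT2G36160) held mean shares of 47.5% and 39.2%, and RPS13, where RPS13A and RPS13B held 54.2% and 45.8%. How reads shared between similar copies were counted is not given in the sources used here, so values of single copies are less certain than sums.

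The 4 largest log2 changes in the list belonged to copies that carry little of their protein's transcript. A minor copy was taken as one with a mean share under 10%, and 9 members met this, of which 8 were tested. Their median log2 change was 0.66, against 0.51 for the 23 dominant copies and 0.52 for the 27 copies in between, and 3 of the 8 rose. Over the 58 tested members the Pearson correlation of log2 change with log2 mean FPKM was −0.64, as a description across genes that share the same 4 libraries.

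**Figure D3:**
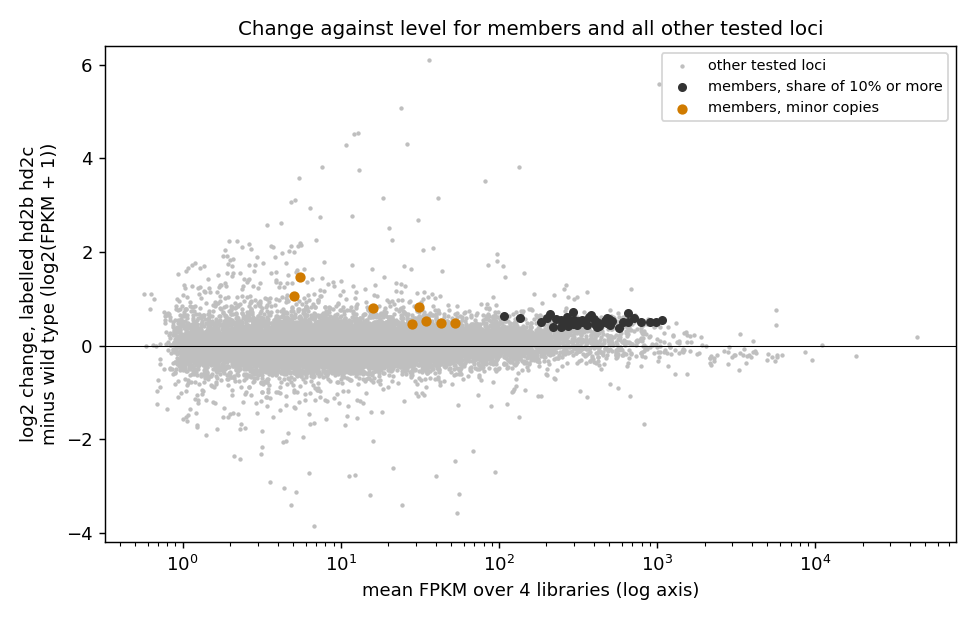
Log2 change (labelled hd2b hd2c minus wild type, y axis) against mean FPKM over the 4 libraries (x axis, log scale) for all tested loci, with the members in black and their minor copies in orange. The members form a band near 0.51 at levels up to 1076 FPKM, and the weakest copies lie above it.

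RPS23A (AT3G09680) is the minor copy of the decoding-centre protein, and its partner RPS23B (AT5G02960) is the third most abundant gene of the list. RPS23A had 8.14 and 8.91 FPKM in the labelled mutants, against 2.44 and 2.48 FPKM in wild type. The groups were far apart and each was tight, and RPS23A rose 3.46-fold (log2 change 1.46, SE 0.14, limma adjusted p = 0.00371). RPS23B had 939.8 and 1192 FPKM in the labelled mutants and 695 and 794 FPKM in wild type. The minor copy therefore held 0.858% and 0.742% of the RPS23 sum in the labelled mutants, against 0.350% and 0.312% in wild type. In absolute terms the mean of RPS23A was 6.06 FPKM higher and that of RPS23B 321 FPKM higher.

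RPSaB (AT3G04770) had 21.6 and 19.3 FPKM in the labelled mutants, against 11.1 and 11.6 FPKM in wild type, and rose 1.80-fold (log2 change 0.79, SE 0.12, limma adjusted p = 0.0272). Its share of the RPSa sum was 3.66% and 2.87% in the labelled mutants, against 2.54% and 2.69% in wild type. The RPSaB groups did not overlap in share, though labelled mutant library 2 came close to wild-type library 2. The RPSaB call ended without labelled mutant library 1 (adjusted p = 0.0520), and both calls ended with no filter on low values (adjusted p = 0.0514 for RPS23A and 0.132 for RPSaB).

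RPS9C (AT5G39850), a minor copy that was not called, had a log2 change of 0.81 (SE 0.17, limma adjusted p = 0.0726), with 40.7 and 39.6 FPKM in the labelled mutants and 18.8 and 26.7 FPKM in wild type. Its wild-type libraries differed from each other more than its labelled mutant libraries did, and it passed without wild-type library 2 (adjusted p = 0.00166). RPS2A, RPS2D and RPS19B had log2 changes of 0.47, 0.53 and 0.48, inside the range of the abundant copies. RPS2D (AT3G57490) had 38.3 and 44.1 FPKM in the labelled mutants and 26.8 and 29.8 FPKM in wild type. RPS19B (AT5G15520) had 44.9 and 55.4 FPKM in the labelled mutants and 32.7 and 38.4 FPKM in wild type. A low share alone thus did not go with a larger change in every case.

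**Figure D4:**
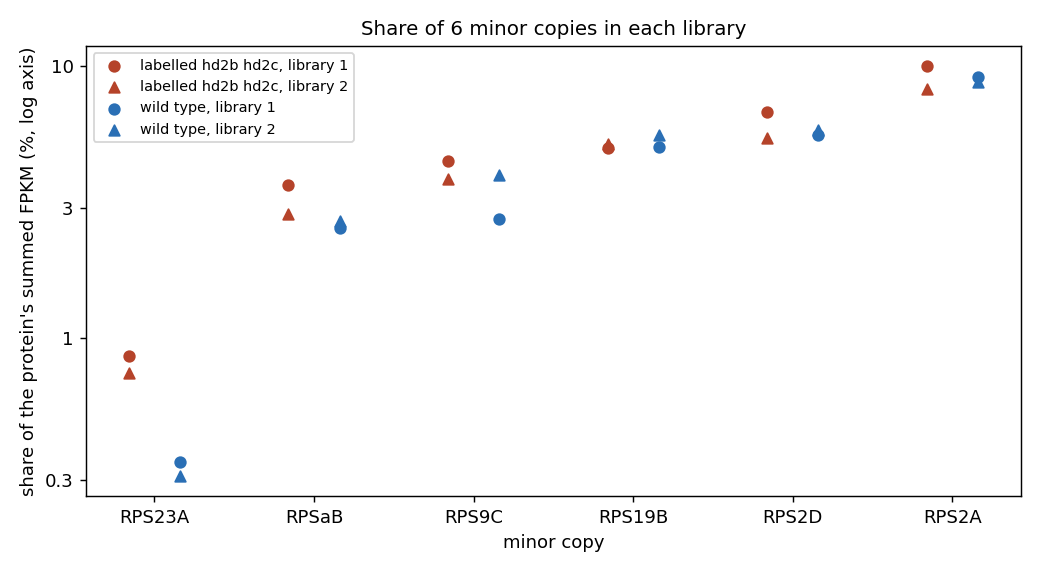
Share of the protein's summed FPKM (percent, log axis) held by each of 6 minor copies in the labelled hd2b hd2c libraries (red, left) and wild-type libraries (blue, right), with circles for library 1 and triangles for library 2. Red lies above blue without overlap for RPS23A and RPSaB, and the 2 colours overlap for the other 4 copies.

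Copy shares do not depend on how libraries are scaled against each other. Of the 58 tested copies, 12 had a share that was higher in both labelled mutant libraries than in both wild-type libraries and 13 had one that was lower, 43.1% of the copies together. With 2 libraries against 2, the smallest two-sided p of an exact permutation test is 0.333, so that test cannot pass a threshold of 0.05. The shares were not tested otherwise, and these counts are descriptions. Among the dominant copies 3 were higher and 9 were lower in share. The differences in mean share were at most a few percentage points, and many were smaller than in the examples that follow. The largest was that of RPS4D (mean 28.5% in the labelled mutants against 25.6% in wild type). RPS24B held 54.4% and 54.3% of its sum in the labelled mutants, against 56.8% and 55.9% in wild type. RPS6A held 57.7% and 59.9% in the labelled mutants, against 56.2% and 56.2% in wild type. RPS4D held 29.6% and 27.5% in the labelled mutants, against 25.5% and 25.6% in wild type.

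RPS2B (AT1G59359) was listed at 0 FPKM in all 4 libraries and was not tested. Further RPS2 loci of the same chromosome, AT1G58684 and AT1G58983, were also listed at 0 in every library. A listed 0 may be an estimate that failed, so nothing on expression is drawn from it. RPS2A (AT1G58380) had 56.4 and 67.1 FPKM in the labelled mutants and 43.6 and 44.4 FPKM in wild type, and RPS2C (AT2G41840) carried 85.1% of the RPS2 sum on average.

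The labelled mutant libraries differed from each other more than the wild-type libraries did. Labelled mutant library 2 was above library 1 for 55 of the 58 tested members, with a median gap of 0.24 on the log2(FPKM + 1) scale, where the median over all tested loci was 0.05. In wild type, library 2 was above library 1 for 46 members, with a median gap of 0.08, where the median over all tested loci was 0.07. The gap was widest for RPS2C, at 472 and 701 FPKM in the labelled mutants and 409 and 437 FPKM in wild type. It was 0.57 for RPS2C and RPS3aB and 0.54 for RPS3A (AT2G31610), on the same log2 scale. For RPS13B (AT3G60770) the labelled mutant libraries differed least, at 471.4 and 471.6 FPKM, against 355 and 328 FPKM in wild type.

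**Figure D5:**
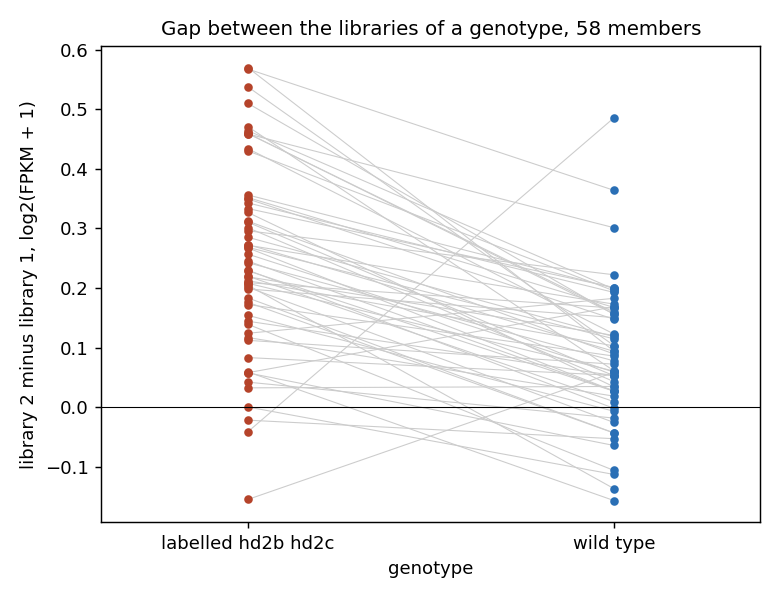
Difference between library 2 and library 1 of the same genotype on log2(FPKM + 1) (y axis) for the 58 tested members in the labelled hd2b hd2c libraries (left) and in wild type (right), with a grey line joining the points of each gene. Most labelled mutant points lie above 0, up to 0.57, and wild-type points lie nearer to 0.

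The number of members past the threshold differed between settings. With the columns scaled to equal FPKM sums, 37 of the 58 members and 14 of the 23 protein sums were called higher, where 1.64% of all tested loci and 1.49% of all rows of the fit with sums were called higher. Without labelled mutant library 1, 29 members and 12 protein sums passed, with 1.36% of all tested loci called higher. Without labelled mutant library 2, 3 members and 0 sums passed, with 0.864% of all tested loci called higher, and 48 members were higher at an unadjusted p under 0.05. Without wild-type library 1, 3 members passed, with 0.738% of all tested loci called higher, and 12 members were higher at an unadjusted p under 0.05. Without wild-type library 2, 4 members passed, with 1.83% of all tested loci called higher, and 20 members were higher at an unadjusted p under 0.05. Over all tested loci, 1847 and 2478 had an unadjusted p under 0.05 in either direction without wild-type library 1 and 2, against 3408 without labelled mutant library 2 and 3420 with all libraries. With no filter on low values 0 members passed by limma and 50 had an unadjusted p under 0.05, while 0.0687% of all loci were called higher. The log2 change of all 58 members stayed above 0 in each of these settings.

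The remaining proteins of the small subunit had log2 changes in the same direction. Of 34 copies of RPS15a, RPS21, RPS25 to RPS30 and the subunit-associated protein RACK1, 31 were tested and all 31 lay above 0 in log2 change (median 0.54). Of all tested loci, 50.7% lay above 0. None of the 31 copies passed in the limma fit, where 0.608% of all tested loci were called higher. At an unadjusted p under 0.05, 28 were higher, where 9.22% of all tested loci were higher. The largest change was that of RPS27aA (AT1G23410), which encodes a fusion of ubiquitin and the ribosomal protein, with 51.2 and 72.8 FPKM in the labelled mutants and 31.0 and 34.8 FPKM in wild type (log2 change 0.88, SE 0.18, limma adjusted p = 0.0701). The smallest changes were those of RPS15aB and RPS15aE (AT2G19720 and AT4G29430), with log2 changes of 0.15 and 0.20. RPS15aB had 19.8 and 25.9 FPKM in the labelled mutants and 19.2 and 21.3 FPKM in wild type, and these groups overlapped. With the copies of RPS2, RPS15 and RPS16 that the list leaves out, small-subunit transcripts came to 3.64% and 3.77% of all FPKM in the labelled mutants, against 2.58% and 2.73% in wild type. The list of 59 held between 65.3% and 66.3% of these in each library.

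Transcripts of the TOR pathway, which promotes ribosome production, were mixed in direction. Of TOR, RAPTOR1B, LST8-1, S6K1 and S6K2, 2 lay above 0 and 3 below in log2 change (median −0.14), with no call. Both labelled mutant libraries stood above both wild-type libraries for 1 of these 5, where 24.2% of all tested loci did so. Both stood below for 3, where 25.1% of all tested loci did so. The part of this pathway in the difference of the small-subunit genes was not tested. S6K1 (AT3G08730), a kinase that phosphorylates RPS6, had 70.7 and 71.1 FPKM in the labelled mutants and 49.7 and 58.7 FPKM in wild type (log2 change 0.39, limma adjusted p = 0.203). TOR (AT1G50030) had 9.94 and 7.30 FPKM in the labelled mutants and 12.2 and 11.2 FPKM in wild type (log2 change −0.41, limma adjusted p = 0.248). TCP20 and TRB1 to TRB3, transcription factors of classes that bind promoter elements common in Arabidopsis ribosomal protein genes, had log2 changes between −0.10 and 0.10, with a median of 0.02 and no call.

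Marker genes of several tissues differed between the groups or between single libraries. All 10 markers of dividing cells lay above 0 in log2 change (median 0.38, no call). Their summed level was 288 and 346 FPKM in the labelled mutants, against 235 and 244 FPKM in wild type. For all 10, both labelled mutant libraries stood above both wild-type libraries, where 24.2% of all tested loci did so. At an unadjusted p under 0.05 by limma, 7 of the 10 were higher, where 9.22% of all tested loci were higher. The 9 root markers summed to 103 and 65.5 FPKM in the labelled mutants, against 44.1 and 68.1 FPKM in wild type, with all 9 log2 changes above 0 (median 0.42, no call). The summed root values overlapped between the groups. The 11 photosynthesis markers summed to 52229 and 70658 FPKM in the labelled mutants, against 72756 and 67141 FPKM in wild type, with 10 of 11 log2 changes below 0 (median −0.21). None of them was called by limma or had an unadjusted p under 0.05. For 5 of the 11, both labelled mutant libraries stood below both wild-type libraries, where 25.1% of all tested loci did so. The summed photosynthesis values overlapped between the groups. None of these markers was listed at 0. The 11 seed markers summed to 192 and 401 FPKM in the labelled mutants, against 5.98 and 28.0 FPKM in wild type. Of the 11, 4 rose at an adjusted p under 0.05 by limma, where 0.608% of all tested loci were called higher. Of the seed markers, SESA1 to SESA5 and CRU2 were listed at 0 in wild-type library 1 and SESA5 in wild-type library 2. The part of these tissues in the difference of the small-subunit genes was not tested.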

How the data were processed

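The authors deposited 1 table of FPKM values for each locus and library (unit per the file headers). RNA libraries came from an Illumina TruSeq kit, according to the labels. The submitters' processing notes name TAIR10, TopHat, Bowtie2 and bedtools without saying what each did. The program behind the FPKM values, its gene models, strand use and treatment of shared reads are not stated in the sources used here. Columns were matched to libraries by genotype abbreviation and number.

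limma 3.58.1 (R 4.3.3) was fitted to log2(FPKM + 1) with genotype as the only term, a variance trend and robust moderation. The 19917 loci reaching 1 FPKM in 2 or more of the 4 libraries were tested two-sided, with Benjamini-Hochberg adjustment over all of them and a threshold of 0.05. Log2 changes understate differences of weak genes, and folds are ratios of mean FPKM. Protein sums were tested in a table where they replaced their copies. The fit was tested on simulated data. Members, lists and tests were chosen with earlier results of these data known. Values were given for members past the threshold, the 10 most abundant, the 5 largest and 5 smallest changes, members listed at 0, minor copies, and proteins whose dominant copy differed between libraries. Some members that meet this rule or belong to the list are counted in sums and totals and not reported here by name. Other members named were chosen after their values were seen. All 59 loci matched RefSeq (TAIR10.1). Its gene lengths entered the gene span alternative, and its coordinates were not used otherwise because the assembly name differs. Promoter motifs and protein identities had been planned and are not analysed here. Alternatives covered pseudocounts, filters, scaling, gene span, a replicate block, the variance trend, the threshold and leaving out each library. With 2 libraries per genotype and unknown depth, precision is limited.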

Additional observations from a re-analysis of the deposited data

How the results depend on the processing

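All 58 tested members kept a log2 change above 0 in each of the 16 alternative fits. The number called higher was 3 as reported and 0 lower. It was 0 when low values were not filtered (50 at an unadjusted p under 0.05), with 0.0687% of all loci called higher. It was 37 with equal column sums, 38 with equal sums without rRNA loci and 5 with median-ratio scaling. In these settings 1.64%, 1.68% and 0.713% of all tested loci were called higher, in that order. At a threshold of 0.01 it was 1 (RPS23A). Protein sums called were 0 as reported, 14 with equal column sums and 16 with equal sums without rRNA loci. Of the 19882 rows of the fit with sums, 118, 297 and 309 were called higher in the same order. The median log2 change of members was 0.51, 0.35 with quantile normalization and 0.43 after removal of a gene span trend. With each library left out in turn, members called ranged from 3 to 29, protein sums from 0 to 12, the median from 0.40 to 0.67, the difference in percent of all FPKM from 0.617 to 0.738 (0.678 as reported) and proteins whose dominant copy's share did not overlap from 15 to 20 (12 as reported), because fewer libraries overlap less often. The upper ends of calls and median came without labelled mutant library 1 (29, 12 and 0.67), and the lowest median came without labelled mutant library 2. Each such fit leaves 1 library in a group, which is assumed to vary like the other group. The 3 calls were all kept in 14 of the 16 fits; exceptions were the unfiltered fit and, for RPSaB, leaving out labelled mutant library 1. The causes of these shifts were not tested. The labels do not say that replicate numbers pair the libraries. Deviations of same-numbered libraries correlated at 0.168 over tested loci, and a replicate block gave 8 members called higher, with 1.31% of all tested loci called higher, against 0.608% as reported. FPKM without fragment counts limits what can be said of copies under a few FPKM. The promoter-motif alternative (another window) was not run.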
